A study of Mus musculus with 2 samples.

Results

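The genes described here make, break down, sense and anchor cyclic AMP. They were chosen by symbol: every gene of the array with a numbered Adcy, Pde or Akap symbol (families a to d of Pde included) or a symbol of a subunit of protein kinase A (PKA), measured by a probe set that the platform annotation gives to that gene alone. The rule found 53 genes, measured by 55 probe sets, among 22180 named genes. They comprise 9 adenylyl cyclases, 23 phosphodiesterases, 6 PKA subunits and 15 A-kinase anchoring proteins (AKAPs). The cyclase Adcy3 was not analysed here, because its probe set also names Cenpo. A probe set that names Akap2 together with Palm2 was left out too, so Akap2 rests on its other probe set. The samples were 2 arrays of ribosome-bound RNA, which the labels call technical replicates. Their source was medial prefrontal cortex pooled from 5 adult D2Cre::RiboTag mice, and both arrays are taken to share 1 pool, although the labels do not state it outright. In these mice Cre, driven by the gene of the dopamine D2 receptor, lets cells build a tagged ribosomal protein, so that ribosomes with their messengers can be pulled down with an antibody to the tag. A cell that had Cre at an earlier stage keeps the tag. The samples form 1 group with no second condition, untagged mouse or unprecipitated RNA, so no comparison between groups and no p-value is possible, and the data give neither enrichment over whole cortex nor variation between animals.

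Cyclic AMP is made from ATP by adenylyl cyclases, which the stimulatory G protein switches on and the inhibitory G proteins switch off. The D2 receptor couples to the inhibitory kind. The messenger is broken down by phosphodiesterases, and it releases the catalytic subunits of PKA from their regulatory subunits, while AKAPs hold PKA beside its targets. Among PKA's nuclear targets is the factor CREB, which binds the cyclic AMP response element in promoters.

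Values are log2 signals of the gene, a scale inferred from their range, and each pair of values gives replicate 1 and then replicate 2. With no control sample, background was taken from 1390 receptor genes of the olfactory and vomeronasal organs. Their 95th percentile was 5.62 on replicate 1 and 5.67 on replicate 2, and a gene was called above background where it exceeded this value on both. Because probe sets differ in how strongly they bind, the signals of different genes were not ranked. Drd2, the gene whose driver defines the captured cells, stood at 10.78 and 10.70. The labels call the captured cells neurons. All 6 pan-neuronal markers, all 5 measured markers of glutamatergic neurons and all 4 of GABAergic neurons were above background. All of these neuronal markers also passed the strictest threshold tried, the 95th percentile of 31 testis, liver and skeletal muscle genes (7.28 and 7.10, the out-of-tissue threshold). Of the genes on that list, 1 of 10 from testis, 3 of 11 from liver and 5 of 10 from skeletal muscle were themselves above background. A call above background alone therefore does not establish expression. All 6 astrocyte, all 5 measured oligodendrocyte, all 4 oligodendrocyte precursor and all 6 microglia markers and 5 of 6 vascular markers were above background too, but at the out-of-tissue threshold these counts were 3, 4, 1, 3 and 1. Of all named genes, 60.3% were above background and 38.0% passed the out-of-tissue threshold. Mean signals ran from 5.72 (Gjb6) to 11.05 (Aldoc) in astrocyte markers and from 7.15 (Mog) to 9.39 (Mobp) in oligodendrocyte markers. In this mixture, fewer cells of a type and less RNA per cell cannot be told apart. Without an untagged mouse, RNA carried over from untagged cells cannot be told apart from that of captured cells either. Which cells gave each signal below was not tested.

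Most of the cyclic AMP system gave signal in this RNA. Of the 53 genes, 43 were above background on both arrays, 0 on 1 array and 10 on neither. Over all 22180 named genes, 60.3% were above background on both arrays and 786 genes on 1 array only. Of the named genes that are not sensory receptors, 64.1% were above background on both. As a description only, since probe sets differ, the median of the members' mean signals was 8.39 and that of all named genes 6.36. All 6 PKA subunits passed, as did 12 of 15 AKAPs, 18 of 23 phosphodiesterases and 7 of 9 cyclases. The 10 genes not above background were Adcy4, Adcy10, Pde1c, Pde3a, Pde6a, Pde6b, Pde6c, Akap3, Akap4 and Akap14.

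**Figure D1:**
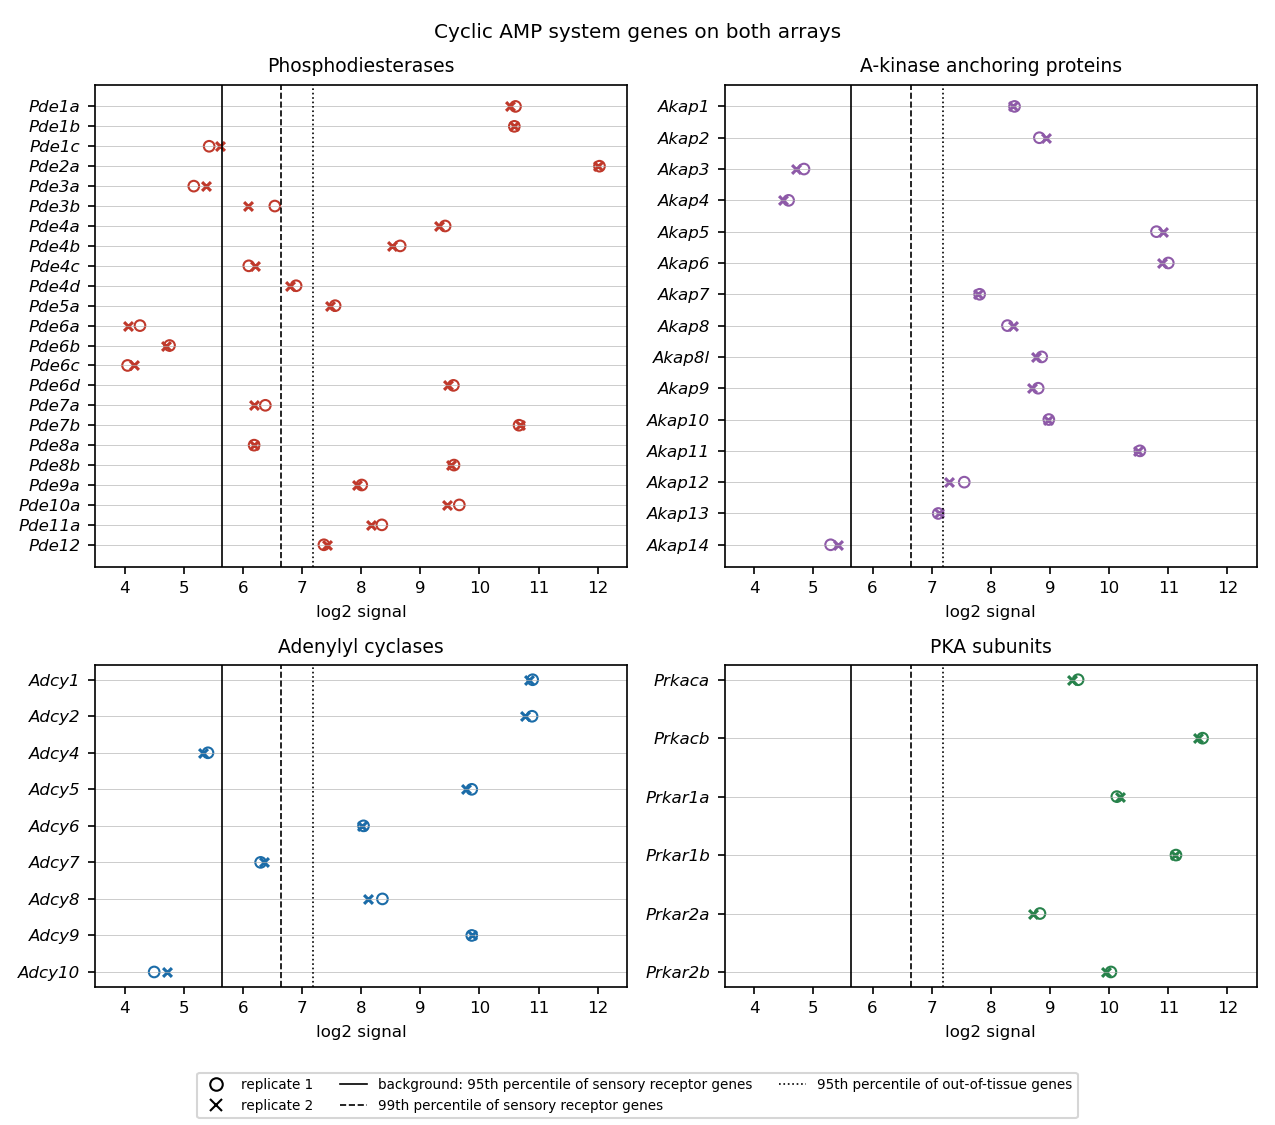
Log2 signal (horizontal axis) of each of the 53 genes on replicate 1 (circles) and replicate 2 (crosses), by class. Vertical lines mark 3 thresholds, each averaged over the arrays, and the 10 genes left of the solid line were not above background on either array.

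The PKA subunits were the class without exception. The catalytic subunit gene Prkacb stood at 11.58 and 11.50, and Prkaca, which encodes the other catalytic subunit, averaged 9.48 and 9.37. The regulatory subunits of type I, Prkar1a and Prkar1b, were at 10.13 and 10.18 and at 11.13 and 11.12. Those of type II, Prkar2a and Prkar2b, were at 8.83 and 8.72 and at 10.03 and 9.95. Both the broadly expressed regulatory genes (Prkar1a, Prkar2a) and the ones known for their expression in brain (Prkar1b, Prkar2b) thus gave signal, and each of the 6 passed every threshold tried. Prkaca is measured by 2 probe sets that differed by 3.38 log2 units, one at 11.13 and 11.09 and the other at 7.82 and 7.65. Both were above background, and the sources used here do not say which part of the gene each probe set targets.

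Promoters were searched for the cyclic AMP response element, TGACGTCA, through which PKA acts on transcription. The 3 PKA subunit windows printed were picked after the search, as examples that hold a match. RefSeq promoter windows, which run from 250 bases before to 50 bases after each annotated start on GRCm38.p6, were held for 43 of the 53 genes, in 84 windows. The element was searched in full (it reads the same on both strands) and as its core, TGACG on either strand, which every full element also contains. In the first window below, capitals mark the full element, which begins at position -49 relative to the start; in the others they mark the core, read as CGTCA.
Prkar1a, chr11:109650699-109650998, plus strand: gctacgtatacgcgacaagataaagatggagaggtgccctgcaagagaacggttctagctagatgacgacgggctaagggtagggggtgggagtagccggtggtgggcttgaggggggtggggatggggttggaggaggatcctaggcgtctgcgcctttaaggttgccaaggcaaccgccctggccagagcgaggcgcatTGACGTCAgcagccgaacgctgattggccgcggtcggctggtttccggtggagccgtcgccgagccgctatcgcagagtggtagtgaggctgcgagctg
Prkaca, chr8:83972728-83973027, plus strand: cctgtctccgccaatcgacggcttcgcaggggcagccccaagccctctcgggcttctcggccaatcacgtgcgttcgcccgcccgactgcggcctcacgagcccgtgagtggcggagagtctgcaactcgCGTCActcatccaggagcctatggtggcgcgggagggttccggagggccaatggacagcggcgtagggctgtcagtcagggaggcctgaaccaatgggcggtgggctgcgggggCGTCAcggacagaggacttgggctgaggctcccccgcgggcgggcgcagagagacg
Prkacb, chr3:146812897-146813196, minus strand: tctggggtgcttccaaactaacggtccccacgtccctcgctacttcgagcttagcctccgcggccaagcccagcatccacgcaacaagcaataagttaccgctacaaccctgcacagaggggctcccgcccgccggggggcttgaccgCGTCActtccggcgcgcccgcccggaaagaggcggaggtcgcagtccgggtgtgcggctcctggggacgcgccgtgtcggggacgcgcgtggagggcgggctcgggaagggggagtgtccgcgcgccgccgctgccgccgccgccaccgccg
The full element occurred in 2 of the 84 windows (2.38%), against 1.79% of all 32851 promoter windows. Both windows belong to Prkar1a, they overlap, and they hold the same copy of the element. The window printed was the one in which the element lies before the annotated start. In the other window it lies after that window's annotated start. The core occurred in 17 of the members' windows (20.2%), against 20.8% of all windows. By class it was in 7 of 19 windows of PKA subunit genes, 2 of 9 of cyclases, 6 of 38 of phosphodiesterases and 2 of 18 of AKAPs. By gene it was in 5 of 6 PKA subunits (all but Prkar2b), 2 of 7 cyclases, 6 of 17 phosphodiesterases and 2 of 13 AKAPs, against 23.0% of all genes. PKA genes have up to 6 windows each, which raises the number of genes with a match. Prkar1a and Prkacb have 1 probe set each, so the arrays do not show which start was in use.

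The cyclases that gave signal span most of the regulatory types. Adcy1, a neuronal cyclase stimulated by calcium and calmodulin, was at 10.90 and 10.84, and Adcy8, of the same type, at 8.36 and 8.12. Adcy5, the main cyclase of striatal projection neurons and one that inhibitory G proteins and calcium inhibit, was at 9.87 and 9.77. Its close relative Adcy6 was at 8.04 and 8.02. Cyclases of both signs of calcium regulation were therefore above background, and these 4 genes passed every threshold tried. Among the cyclases that G protein beta-gamma subunits stimulate, Adcy2 was at 10.89 and 10.77, and Adcy7 was at 6.30 and 6.35. Adcy4, the remaining gene of that type, was not above background at 5.41 and 5.33. Adcy7 passed only the lower thresholds: it did not exceed the 99th percentile of those sensory receptors (6.64 on both arrays). Adcy9, a membrane cyclase known for its weak response to forskolin, was at 9.87 and 9.88. The soluble cyclase Adcy10, which bicarbonate activates and which is best known from sperm, was not above background at 4.50 and 4.72.

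Among phosphodiesterases, the genes of the calmodulin-dependent, cyclic GMP-stimulated and other dual enzymes, which degrade both cyclic AMP and cyclic GMP, were above background in all cases but Pde1c. Pde2a, whose enzyme cyclic GMP stimulates, was at 12.03 and 12.01. Of the calmodulin-dependent genes, Pde1a was at 10.61 and 10.52 and Pde1b at 10.59 and 10.58. Pde1c, the remaining calmodulin-dependent gene, was at 5.43 and 5.62, the closest of all members to the threshold from below, under it by 0.12 on average. Pde10a, known for its high expression in striatal projection neurons, was at 9.66 and 9.46. Pde11a was at 8.35 and 8.16. The genes of the cyclic GMP-inhibited enzymes were near the threshold on either side: Pde3b, known from fat cells and liver, was at 6.54 and 6.08, and Pde3a, known from heart and platelets, was not above background at 5.17 and 5.37.

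All 8 genes of cyclic AMP-specific phosphodiesterases were above background, but not all by a clear margin. In the rolipram-sensitive family, Pde4a was at 9.42 and 9.31 and Pde4b at 8.66 and 8.52. Pde4d was at 6.90 and 6.79, and Pde4c at 6.10 and 6.20. Pde4a and Pde4b thus passed every threshold, whereas Pde4d did not pass the out-of-tissue threshold and Pde4c passed neither that one nor the 99th percentile. With probe sets averaged, the other families split by paralog. Pde7b was at 10.67 and 10.69 and Pde8b at 9.57 and 9.52, and both passed every threshold. Pde7a averaged 6.38 and 6.20, and Pde8a was at 6.19 on both arrays, and neither passed the higher thresholds. The Pde7a mean hides a disagreement of 2.61 log2 units, since its probe sets were at 7.64 and 7.54 and at 5.12 and 4.85, on different sides of background. The higher probe set alone passed every threshold, so the split of Pde7a from Pde7b rests on the averaging.

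Of the phosphodiesterase genes named for cyclic GMP, Pde5a, the target of sildenafil, was at 7.56 and 7.47 and Pde9a at 8.01 and 7.93. The PDE6 family, which serves vision, divided by function. Its catalytic subunit genes, Pde6a and Pde6b of rods and Pde6c of cones, were at 4.26 and 4.06, at 4.76 and 4.70, and at 4.05 and 4.16, and none was above background. Pde6d, which encodes a carrier of prenylated proteins found in many tissues rather than a catalytic subunit, was at 9.56 and 9.47. Of 7 other measured photoreceptor genes, 3 were above background (Gnat1, Nrl and Pde6g), and 0 passed the 99th percentile, against 60.3% and 44.9% of all named genes. Pde12, which shares the name but degrades oligoadenylates and mitochondrial RNA tails rather than cyclic nucleotides, was at 7.37 and 7.42.

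The AKAPs above background are known as anchors at many sites in the cell. Akap5, the postsynaptic scaffold that also binds protein kinase C and calcineurin, was at 10.80 and 10.91. Akap6, an anchor of the nuclear envelope in heart and brain, was at 11.00 and 10.89, and Akap11, which also binds the kinase GSK3, at 10.52 and 10.48. These genes passed every threshold. Akap9, the anchor of Golgi and centrosome that also binds an NMDA receptor subunit, was at 8.80 and 8.69. Akap7, which associates with L-type calcium channels, was at 7.81 and 7.78, and Akap1, the anchor on the outer mitochondrial membrane, at 8.40 and 8.37. Synaptic, nuclear, Golgi and mitochondrial anchors were thus all represented. The nuclear proteins Akap8 and Akap8l were at 8.28 and 8.37 and at 8.86 and 8.77, Akap10 at 8.98 and 8.96 and Akap2 at 8.82 and 8.93. The scaffold Akap12 (gravin) was at 7.55 and 7.29. Akap13 was at 7.11 and 7.13 and was the AKAP above background that did not pass the out-of-tissue threshold.

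The 3 AKAPs not above background are known from motile cilia or flagella. Akap3 and Akap4, of the fibrous sheath of the sperm tail, were at 4.84 and 4.70 and at 4.58 and 4.49, and Akap14, of ciliary axonemes, at 5.29 and 5.42. Of 7 measured sperm markers that are no members, 1 was above background, Odf1 at 7.46 and 7.54, against 60.3% of all named genes.

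The share of members above background stayed over the share of all named genes at every threshold, as the plot of genes above each threshold shows. At the median of all probe sets, 43 of 53 members passed, against 57.5% of all named genes. At the 99th percentile of sensory receptors, 38 of 53 members passed, against 44.9% of all named genes. At the out-of-tissue threshold, 36 of 53 passed, against 38.0% of all named genes. Members lost between the lowest and the highest threshold were Adcy7, Pde3b, Pde4c, Pde4d, Pde7a, Pde8a and Akap13. No test of a difference from other genes was made, and 36 genes passed all 4 thresholds while 10 passed none.

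**Figure D2:**
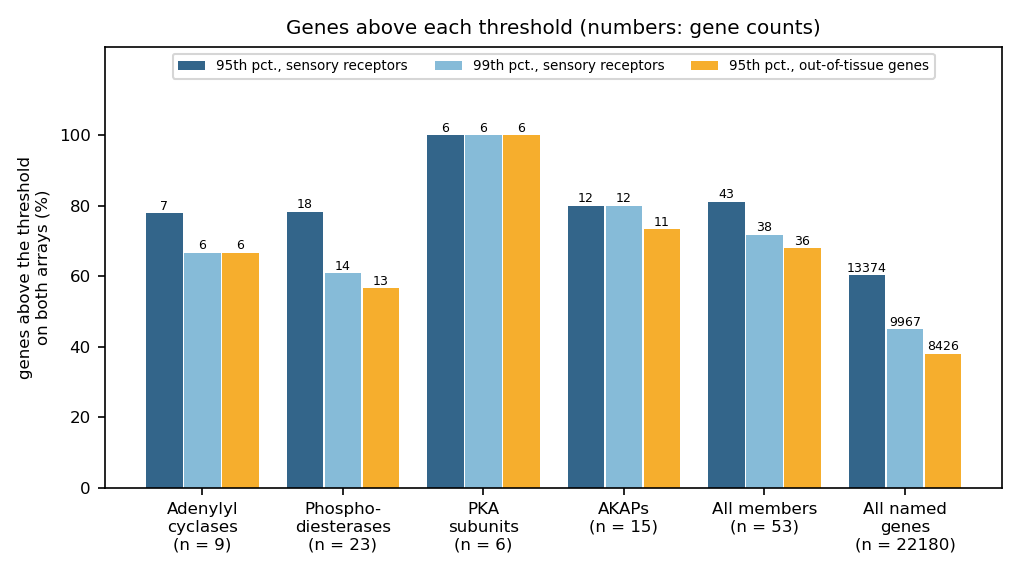
Share of genes above each of 3 thresholds on both arrays (vertical axis, percent, with gene counts over the bars) for the 4 classes, all 53 members and all 22180 named genes. PKA subunits stand at 6 of 6 throughout, and phosphodiesterases pass in 18, 14 and 13 of 23 cases.

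The arrays repeated each other closely for these genes. The difference between arrays, replicate 1 minus replicate 2, had an SD of 0.123 log2 units over the 53 members and 0.218 over all named genes. For members above background this SD was 0.108, and for all genes above background 0.149. A difference over 0.2 was seen in 4 members (7.55%), against 26.9% of all named genes: Pde3b (0.46), Akap12 (0.26) and Adcy8 (0.24) were higher on replicate 1, and Adcy10 was higher on replicate 2 (-0.22). The share over all named genes includes those not above background, for which the SD was 0.291. The median absolute difference was 0.09 both for members above background and for all genes above background. Of the 43 members above background, 32 were higher on replicate 1, 10 on replicate 2 and 1 was equal, with a median difference of 0.08. Of all genes above background 53.5% were higher on replicate 1, with a median difference of 0.02. This spread covers only the steps repeated between technical arrays. No call of a member differed between the arrays, and few did elsewhere: 786 of all 22180 named genes were above background on 1 array only.

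**Figure D3:**
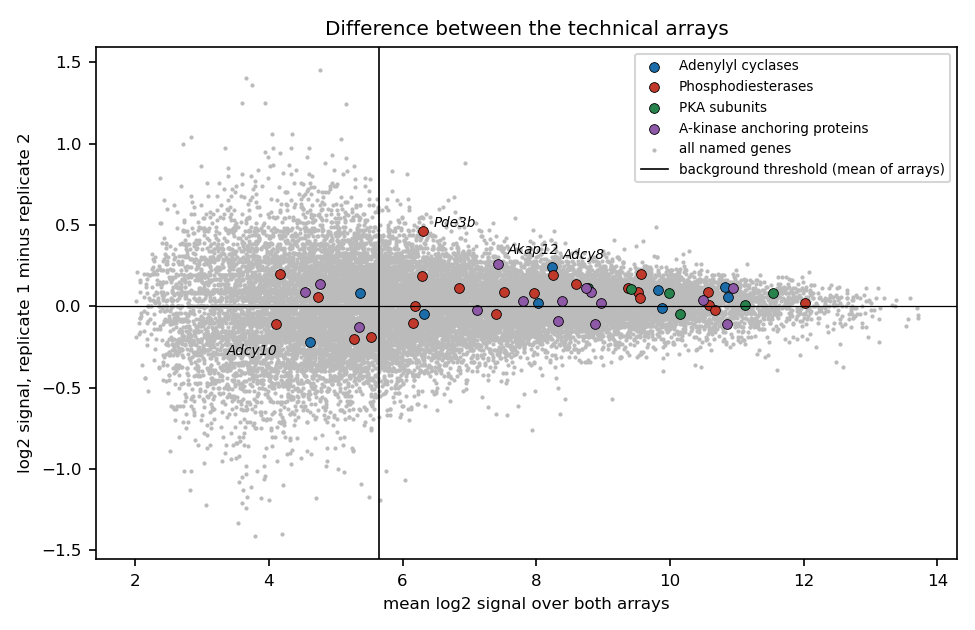
Difference between the arrays (vertical axis, replicate 1 minus replicate 2, log2 units) against mean log2 signal (horizontal axis) for the members by class (coloured) and all named genes (grey). The members' largest difference is that of Pde3b, at 0.46, and the grey cloud widens below the background line.

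Genes that act beside the members were mostly measured above background as well. Over lists of other genes of cyclic nucleotide signalling, 47 of 54 measured genes passed, against 60.3% of all named genes. At the 99th percentile of sensory receptors 39 passed, against 44.9%, and at the out-of-tissue threshold 36, against 38.0%. All 7 G protein alpha subunits passed. The olfactory-type stimulatory subunit Gnal, which couples dopamine and adenosine receptors to cyclases in striatum, was at 10.79 and 10.76. Gnas, the gene of the general stimulatory subunit, was at 5.96 and 5.90 and did not pass the higher thresholds. Gnal and Gnas are measured by 1 probe set each, so their signals were not ranked. A low signal on 1 probe set does not show that a gene is little expressed. The inhibitory subunits Gnai1, Gnai2 and Gnai3 averaged 11.22, 10.08 and 8.19. Gnao1 averaged 12.78 and Gnaz 9.77, so genes of every inhibitory subunit on the list were above background.

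Regulators of PKA and other cyclic AMP-binding proteins gave signal in part. The inhibitor peptides Pkia and Pkib were at 9.21 and 9.30 and at 7.21 and 7.38, and the related kinase Prkx at 7.51 and 7.26. The cyclic AMP-activated exchange factor Rapgef3 was at 6.54 and 6.52 and did not pass the higher thresholds. Of the Popeye proteins, which bind cyclic AMP, Popdc3 alone was above background on both arrays, and it did not pass the higher thresholds. Bves was at 5.59 and 5.29 and Popdc2 at 5.71 and 5.66. Among nuclear targets and their partners all 7 measured genes were above background, against 60.3% of all named genes. Creb1 was at 9.57 and 9.62 and its coactivator Crtc1 at 11.37 and 11.43. Crem, at 5.83 and 5.71, did not pass the higher thresholds. On replicate 2 Crem was also below the median of all probe sets (5.81). All 4 measured cyclic AMP-regulated phosphoproteins were above background, Ppp1r1a and Arpp21 at 10.30 and 10.38 and at 9.97 and 9.85. Ppp1r1b, also on that list, had no probe set naming it alone and was not measured. All 10 anchoring proteins without an Akap symbol passed every threshold, against 38.0% of all named genes at the out-of-tissue threshold. Among them were Map2 at 12.04 and 12.05, Sphkap at 10.26 and 10.17 and Wasf1 at 11.45 and 11.53.

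**Figure D4:**
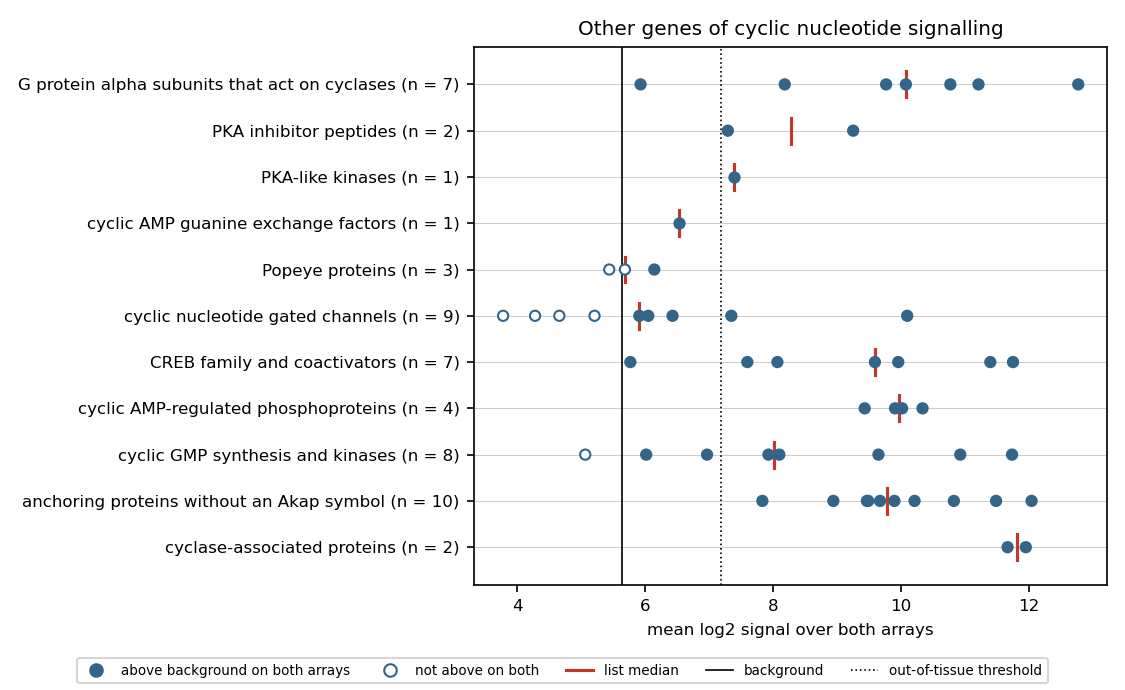
Mean log2 signal (horizontal axis) of 54 other genes of cyclic nucleotide signalling by list, filled where above background on both arrays, with list medians in red. The open points are 4 cyclic nucleotide-gated channel genes, 2 Popeye genes and Gucy2c.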

How the data were processed

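Ribosome-bound RNA was measured on 2 arrays after biotin labelling with the Affymetrix WT Plus kit, per the labels' protocols. The deposited table holds log2 signals, 1 per probe set and array (34472 probe sets). The log base is inferred from the values, and the sources used here give no method of summarisation, background correction or normalization. Of the probe sets, 23521 named 1 gene in the platform annotation, 1814 named several and 9137 are unnamed here. Gene IDs of 52 of the 53 members matched RefSeq, with 0 of those symbols changed, and Akap2 kept the annotation's symbol. Probe sets of a gene were averaged. Signals of each gene were set against 4 thresholds computed within each array: percentiles 95 and 99 of the sensory receptor genes, percentile 95 of 31 out-of-tissue genes, and the median of all probe sets. Tables were computed with Python 3.11.15, numpy 2.4.6 and pandas 2.3.3. The procedure was tested on simulated data with genes placed well above or well below the threshold. That tests neither genes near the threshold nor the choice of sensory receptors as background. No p-value is given, since the arrays are technical replicates, and their number limits the precision. Every member is named. Of the other lists, measured genes could be named, and Ppp1r1b is named as not measured. Members and lists were chosen with earlier results of these data known, and promoters were searched after the signals were seen. Alternatives were the other thresholds, the highest or lowest probe set, each array alone, quantile normalization and genes with 1 probe set. There were 0 columns of per-sample values left unused.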

Additional observations from a re-analysis of the deposited data

How the results depend on the processing

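The count of 43 members above background was unchanged with the median of all probe sets as threshold, with the highest probe set, after quantile normalization and on either array alone, and these were the same genes. With the lowest probe set of each gene it was 42, without Pde7a. Among the 51 members with 1 probe set, 41 passed. Class counts moved by less than 1.5 times under every alternative. The count over all named genes, 13374, was 8426 at the out-of-tissue threshold, which lies between the signals of Apoa2 and Odf1 in a list of 31 genes; other alternatives kept it between 9967 and 13852. Choice of probe set could change only Prkaca and Pde7a, the members with 2 probe sets. It moved their mean signals beyond the SD of the arrays. With the highest and lowest probe set these were 11.11 and 7.74 for Prkaca and 7.59 and 4.99 for Pde7a. Quantile normalization moved no member's mean beyond that SD. Leaving out an array cannot move a mean of 2 arrays beyond their SD, so it does not test stability of the mean. No paired analysis was possible because there is only 1 group. Genes near background, such as Pde1c, cannot be called present or absent from these arrays.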

Other observations

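Cyclic GMP, which sets the activity of several phosphodiesterases described above, has its own enzymes. Of 8 measured genes for its synthesis and kinases, 7 were above background, against 60.3% of all named genes. The subunits of soluble guanylyl cyclase, the receptor of nitric oxide, were at 10.97 and 10.89 (Gucy1a1), 9.68 and 9.62 (Gucy1a2) and 11.78 and 11.70 (Gucy1b1). The membrane cyclases Npr1 and Npr2, receptors of natriuretic peptides, averaged 6.02 and 8.10, and Gucy2c, known from intestine, was not above background at 5.12 and 5.01. The kinases Prkg1 and Prkg2 were at 8.05 and 7.81 and at 7.00 and 6.94.

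Of 9 measured channels gated by cyclic nucleotides, 5 were above background (55.6%, against 60.3% of all named genes). The pacemaker channel Hcn2 was at 10.07 and 10.13, Hcn3 at 7.25 and 7.45 and Hcn4 at 5.87 and 5.95. Of the sensory channel subunits, Cnga4 and Cngb1 averaged 6.43 and 6.05. Cnga1, Cnga2, Cnga3 and Cngb3 averaged 3.78, 4.28, 5.21 and 4.66 and were not above background. Hcn2 passed every threshold tried, and Hcn3 missed the out-of-tissue threshold on replicate 1. The actin-binding cyclase-associated proteins Cap1 and Cap2 were at 11.76 and 11.58 and at 11.98 and 11.93.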
